A study of Mus musculus with 46 samples.

Results

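Amh, the gene for anti-Müllerian hormone, varied widely among XX mouse gonads that carried 2 mutant copies of Enh13, a remote enhancer of Sox9. Of the 46 libraries of the series, 15 came from XX gonads homozygous for an Enh13 mutation, and these 15 were divided by their own Amh level. A library counted as high where Amh stood at 50 CPM or more (CPM, counts scaled by the library total), and as low where it stood under 50 CPM. This gave 8 high and 7 low libraries, with 3 high and 2 low among the 1bp-ins-hom gonads, 3 high and 2 low among the 3bp-12bp-del-hom gonads, and 2 high and 3 low among the 3bp-del-hom gonads. What the 3bp-12bp-del genotype consists of is not said in the labels, nor are the strain and the litter. All gonads were taken at E12.5. The groups set beside the 15 libraries were wild-type XX gonads (n = 3), wild-type XY gonads (n = 3) and all XY gonads (n = 22), which were wild type, heterozygous or homozygous for 1bp-ins or 3bp-del, or homozygous for 3bp-12bp-del. Because the classes were read from the same libraries, the difference between high and low describes which genes went with Amh and is no test of a condition.

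AMH is secreted by Sertoli cells, the supporting cells of the testis, and causes the Müllerian ducts, which would form the oviducts and uterus, to regress. SOX9 is the transcription factor that starts the Sertoli program, and it acts on the Amh promoter together with SF1 (Nr5a1), GATA4, WT1 and SOX8. In the ovary the same precursors become pregranulosa cells, which depend on FOXL2 and on WNT signalling through WNT4 and RSPO1. Sertoli cells also make desert hedgehog (Dhh), which acts on interstitial cells that become fetal Leydig cells, the source of androgen.

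All 15 libraries matched their sex label, with Xist, the RNA of X inactivation, at 41.1 to 197 CPM and the summed Y-linked genes at 0 to 0.679 CPM. The total estimated count per library ran from 33073297 to 44144757. One library stood apart from the other 14 throughout, the 1bp-ins-hom replicate 5, so several of the list counts and gene values below are also given without it. In the low class the 3bp-del-hom replicate 4 carried the markers of the mesonephros, the tissue attached to the gonad, at a summed 133 CPM, against 17.3 to 38.2 CPM in the other 14. Markers of the adrenal summed to 41.6 to 47.7 CPM in the 1bp-ins-hom replicates 1, 3 and 4 and to 4.45 to 18.4 CPM in the others. Nothing in the labels says that replicates came from separate embryos, so every p-value measures only the spread between these samples. In bulk gonads, more cells of a type and more RNA per cell cannot be told apart.

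The Amh level of the 15 libraries spanned 12.8 to 878 CPM. In the 1bp-ins-hom gonads it was 25.5, 82.0, 137, 18.3 and 878 CPM in replicates 1 to 5. In the 3bp-12bp-del-hom gonads it was 89.8, 34.2, 12.8, 183 and 145 CPM, and in the 3bp-del-hom gonads 87.7, 36.7, 71.9, 21.9 and 35.6 CPM. Each genotype thus held both classes, and the library just inside the threshold stood at 71.9 CPM and the one just outside at 36.7 CPM. Wild-type XX gonads gave 0.277, 0.168 and 0.0968 CPM in replicates 1 to 3, which are 3 to 10 counts per library. Wild-type XY gonads gave 531, 467 and 227 CPM. All 7 low libraries were therefore far above the wild-type ovary, and 1 high library was above all 3 wild-type testes while the other 7 were below them.

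**Figure D1:**
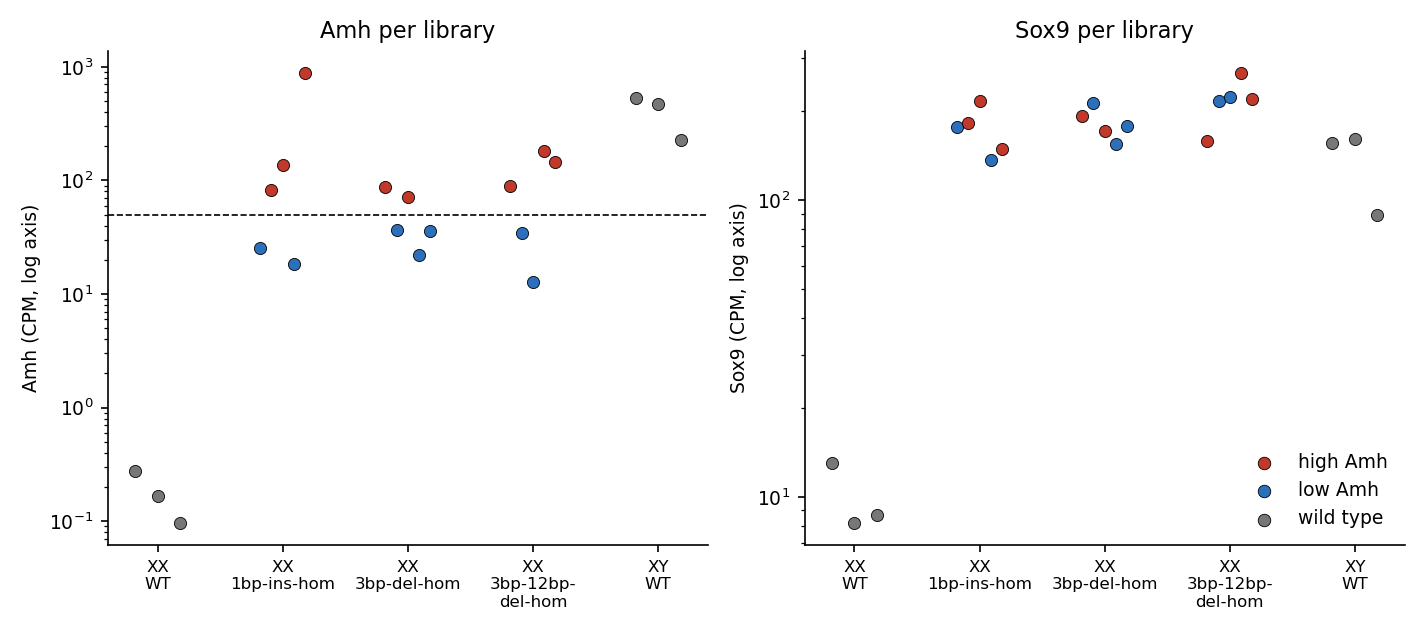
Amh (left) and Sox9 (right) in CPM on log axes, 1 point per library, in wild-type gonads (grey) and in the 3 XX homozygous genotypes, with high-Amh libraries in red and low-Amh libraries in blue; the dashed line is the 50 CPM threshold. Amh spans 12.8 to 878 CPM over the 15 homozygous libraries, whereas their Sox9 values lie between 137 and 268 CPM with both classes intermingled.

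Sox9 was not called between the classes. It stood at 149 to 268 CPM in the high libraries (median 187) and at 137 to 223 CPM in the low ones (median 178), so the classes overlapped almost fully. The 1bp-ins-hom replicate 5, which had the highest Amh, had the second-lowest Sox9. Wild-type XX gonads held 8.17 to 13.01 CPM and wild-type XY gonads 89.3 to 160 CPM, so both classes lay above the wild-type XX level of Sox9. The high over low difference was 0.07 ± 0.12 (log2, SE; edgeR quasi-likelihood test with Benjamini-Hochberg adjustment, adjusted p = 0.83), with a 95% interval of -0.19 to 0.33. Within the genotypes the differences of mean log2 CPM were 0.23 in the 1bp-ins-hom, -0.08 in the 3bp-12bp-del-hom and 0.02 in the 3bp-del-hom gonads, and the fitted difference was -0.0082 with the 1bp-ins-hom gonads left out.

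Of the 7 transcription factors listed as acting on Amh, Sox8 differed most. Sox8, a SOX9 relative that can stand in for it in Sertoli cells, stood at 16.1 to 32.9 CPM (median 23.8) in the high libraries and at 7.62 to 17.8 CPM (median 12.48) in the low ones. The ranges overlapped only between 16.1 and 17.8 CPM, and the log2 difference was 0.93 ± 0.20 (adjusted p = 0.11). Nr5a1, which encodes SF1, differed by 0.17 ± 0.08 and Gata4 by 0.13 ± 0.06. Wt1 differed by -0.17 ± 0.10, with 294 CPM in the 1bp-ins-hom replicate 5 against 453 to 580 CPM in the other high libraries. None of the 7 factors passed the adjusted threshold between the classes in edgeR, while DESeq2 called Sox8 (adjusted p = 0.00033). Sox8 was 1 of 26 genes called by DESeq2 among those examined singly, a set chosen largely after its values were seen. DESeq2 left 33 of that set uncalled, and it called 3.03% of all genes. In the edgeR fit on log2 Amh Sox8 rose and Wt1 fell with Amh, and without the 1bp-ins-hom replicate 5 Sox8 alone of the 7 did so.

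Across all 16116 genes tested, edgeR with the genotype as covariate called 0 genes at an adjusted p under 0.05, with Amh left out (0%). At an unadjusted p under 0.05 it held 1248 genes higher and 1049 lower in the high libraries, 14.3% of all. The count depended on the method and on 1 library. DESeq2 called 476 of 15724 genes (3.03%), 322 higher (2.05%) and 154 lower (0.979%), and edgeR without the 1bp-ins-hom replicate 5 called 105 of 16004 (0.656%), 94 higher (0.587%) and 11 lower (0.0687%). Leaving out the 3bp-12bp-del-hom replicate 1 gave 34 calls, and leaving out any other library gave 0 to 3. With log2 Amh as a continuous covariate in place of the 2 classes, 1090 genes rose (6.55%) and 752 fell (4.52%) with Amh over the 15 libraries, 11.1% of 16643. That fit gave 552 and 200 (4.63% of 16230) without the 1bp-ins-hom replicate 5. A further measure, on CPM, needs no model: in 72 genes (0.447%) every high library lay above every low one, and in 7 (0.0434%) every high library lay below. Of those 72 genes 55 were called higher in wild-type XY than in wild-type XX gonads and 0 lower, where 5.10% of all genes were called higher.

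Sertoli genes had higher values in the high class. All 21 tested members other than Amh had a positive difference, with a median of 0.77 (log2), against 50.9% positive and a median of 0.00 over all genes tested. Of the 21, 15 reached an unadjusted p under 0.05 (7.74% of all genes did so in this direction). In CPM the classes did not overlap in 5 of the 21, Dhh, Ptgds, Col9a3, Defb19 and Hsd17b1. Over all genes 0.447% had every high library above every low one. In TPM, which also scales by gene length, Dhh overlapped (18.05 in a high and 19.08 in a low library), as did Col9a3 (24.18 and 26.77). Leaving out the 1bp-ins-hom replicate 5 kept all 21 positive, with a median of 0.60, and 6 were then called: Gdnf, Ptgds, Vnn1, Hsd17b1, Col9a3 and Defb19 (0.587% of all genes were called higher). Each of these 6 was called in that 1 alone of the 15 fits that left out a library. In the fit on log2 Amh 17 of the 21 rose with Amh, where 6.55% of all genes rose, and 15 did so without that library, where 552 of 16230 genes rose. The list was drawn up with earlier results of these libraries known and is no independent evidence of its direction.

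Among the secreted Sertoli signals, Dhh stood at 54.1 to 218 CPM (median 84.6) in the high libraries and at 15.6 to 46.8 CPM (median 36.5) in the low ones. The classes did not overlap in CPM, and the log2 difference was 1.55 ± 0.35 (adjusted p = 0.11), or 1.33 without the 1bp-ins-hom replicate 5. Wild-type XX gonads held 0.968 to 1.84 CPM of Dhh. Gdnf, the growth factor that maintains spermatogonial stem cells, ranged from 7.77 to 36.2 CPM (median 12.53) against 4.74 to 9.17 CPM (median 5.62). Only the 3bp-12bp-del-hom replicate 2 among the low libraries reached into the high range. Fgf9, which sustains Sox9 in the early testis, stood at 15.7 to 27.2 CPM (median 22.9) against 19.4 to 24.4 CPM (median 22.6), a difference of 0.07 ± 0.10. Inhbb, the inhibin βB subunit, differed by 0.16 ± 0.09. Sox9, Fgf9 and Inhbb thus had the smaller differences among the list members given here.

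The enzymes and matrix genes of the list showed wider differences. Ptgds, the prostaglandin D synthase of Sertoli cells, stood at 10.1 to 97.4 CPM (median 14.1) in the high libraries and at 4.12 to 7.48 CPM (median 6.66) in the low ones, a log2 difference of 1.77 ± 0.54 (adjusted p = 0.18). Without the 1bp-ins-hom replicate 5 the difference was 1.25 ± 0.22 (adjusted p = 0.030). Col9a3, a chain of collagen IX, stood at 37.6 to 310 CPM (median 70.6) against 16.6 to 37.4 CPM (median 24.1), so that the classes were parted by a narrow margin. The other 2 chains of collagen IX, chosen after their values were seen, differed as well: Col9a1 by 1.05 ± 0.26 and Col9a2 by 0.97 ± 0.24. All 3 chains were called without the 1bp-ins-hom replicate 5 (0.84 ± 0.17 for Col9a1 and 0.76 ± 0.13 for Col9a2). No other fit that left out 1 library called any of them. Hsd17b1, which converts estrone to estradiol, reached 11.1 CPM in the 1bp-ins-hom replicate 5 and 0.408 to 1.11 CPM in the other high libraries, against 0.168 to 0.314 CPM in the low ones. Tesc, Aard, Cst9 and Mmd2, all markers of early Sertoli cells, differed by 1.11 ± 0.25, 0.81 ± 0.22, 0.77 ± 0.21 and 0.66 ± 0.19.

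**Figure D2:**
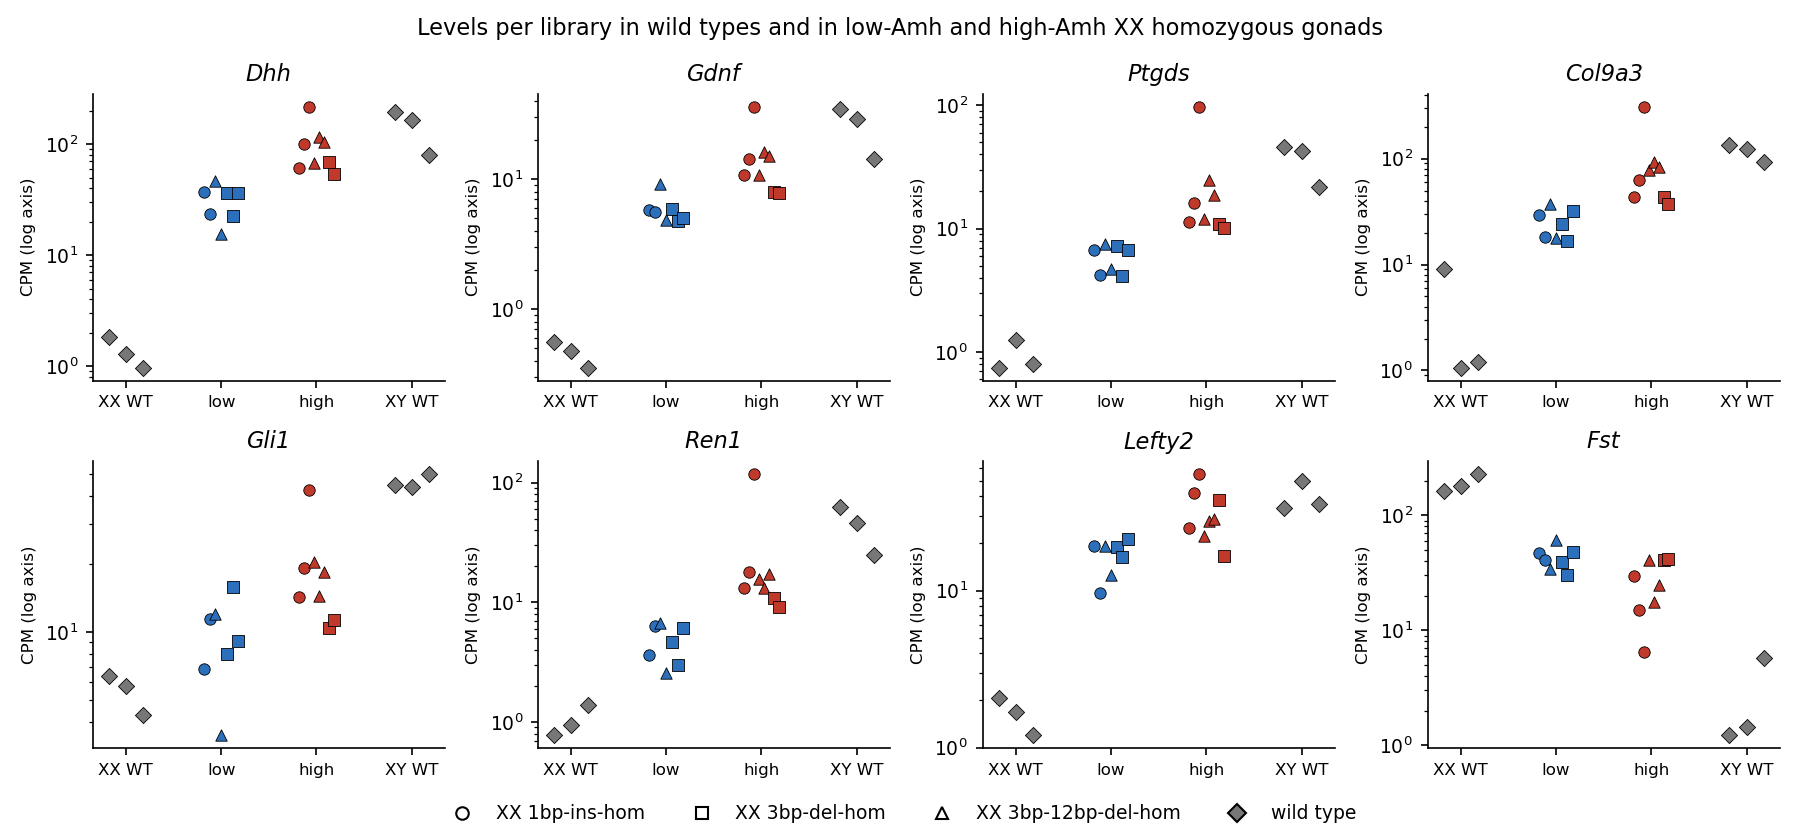
CPM of 8 genes on log axes, 1 point per library, in XX wild type, low-Amh (blue), high-Amh (red) and XY wild type (grey diamonds); the marker shape of the homozygotes gives the genotype. Dhh, Ptgds, Col9a3 and Ren1 separate the classes with no overlap, the 1bp-ins-hom replicate 5 is the uppermost red point in the panels of Dhh, Gdnf, Ptgds, Col9a3, Gli1, Ren1 and Lefty2, and Fst overlaps between the classes.

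Targets of Hedgehog signalling report its activity in the cells that receive DHH, among them Gli1, Ptch1 and Hhip. Gli1, a transcription factor induced by the pathway, stood at 10.5 to 42.1 CPM (median 16.4) in the high libraries and at 3.51 to 15.8 CPM (median 9.13) in the low ones, a log2 difference of 0.89 ± 0.36 (adjusted p = 0.28) with overlapping ranges. Ptch1, the DHH receptor, differed by 0.77 ± 0.29. Without the 1bp-ins-hom replicate 5 the differences were 0.67 for Gli1 and 0.52 for Ptch1. Hhip, a membrane protein that binds the ligand, reached 94.8 CPM in the 1bp-ins-hom replicate 5 and stood at 0.634 to 1.81 CPM in the other 7 high libraries and 0.418 to 1.40 CPM in the low ones, against 17.4 to 41.5 CPM in wild-type XY gonads. Over all 15 libraries Gli1, Ptch1 and Hhip rose with log2 Amh, and of these only Ptch1 did so without the 1bp-ins-hom replicate 5.

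Among fetal Leydig and steroidogenic genes, 3 separated the classes in CPM, where 0.447% of all genes did so with the high class above. Others stood high in 1 library. Of 11 tested, 10 had a positive difference, with a median of 0.54 (log2), which was 0.22 without the 1bp-ins-hom replicate 5. Ren1, the renin gene, which fetal gonads express, stood at 9.15 to 118 CPM (median 14.4) against 2.56 to 6.68 CPM (median 4.70), with no overlap and a difference of 2.04 ± 0.58 (adjusted p = 0.15). Scarb1, the HDL receptor that brings in cholesterol, stood at 88.9 to 146 CPM (median 96.0) against 67.5 to 88.8 CPM (median 80.7), and Fdxr, which passes electrons to the mitochondrial P450 enzymes, at 65.2 to 166 CPM (median 76.6) against 47.4 to 62.8 CPM (median 61.1). Scarb1 was parted only by 88.89 against 88.83 CPM. In TPM Scarb1 overlapped (53.23 in a high and 59.49 in a low library), as did Fdxr (50.94 and 52.5). Ren1 did not overlap in TPM (8.76 and 7.14). Without the 1bp-ins-hom replicate 5 Ren1, Scarb1 and Fdxr were called, at 1.49 ± 0.23, 0.24 ± 0.05 and 0.37 ± 0.08, where 0.587% of all genes were called higher. Each was called in that 1 alone of the 15 fits that left out a library. Hsd17b3, which makes testosterone and in the fetal testis is a Sertoli enzyme, differed by 1.62 ± 0.42. Cyp17a1, the androgen-forming enzyme, was at 63.6 CPM in the 1bp-ins-hom replicate 5 and at 0.644 to 1.19 CPM in the other high libraries, and the low libraries held 0.506 to 0.895 CPM. Insl3, the Leydig hormone of testis descent, was at 17.3 CPM in the same library and at 0.227 to 0.661 CPM in the other high ones. For Cyp17a1 and Insl3 only 1 of the 8 high libraries was far from the low class.

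Pregranulosa genes leaned to the other side, with higher values in the low class. Of 15 tested, 12 had a negative difference, with a median of -0.28 (log2), and 4 reached an unadjusted p under 0.05 (6.51% of all genes did so in this direction). Lef1, which carries WNT signals to DNA, stood at 26.1 to 45.7 CPM (median 39.0) in the high libraries and at 39.7 to 55.8 CPM (median 50.4) in the low ones, a difference of -0.32 ± 0.09 (adjusted p = 0.14). Wnt4 stood at 47.5 to 177 CPM (median 118) against 134 to 210 CPM (median 166), a difference of -0.44 ± 0.18. Fst, which encodes the activin antagonist follistatin, differed by -0.68 ± 0.32, Nkd1, a WNT feedback gene, by -0.32 ± 0.14, and Bmp2, a pregranulosa signal, by -0.28 ± 0.22. Foxl2 stood at 4.33 to 26.0 CPM (median 11.9) against 12.98 to 24.96 CPM (median 15.8), the classes overlapped, and the difference of -0.22 ± 0.27 became 0.0398 with the 1bp-ins-hom gonads left out. In the fit on log2 Amh 8 of the 15 fell and 1 rose with Amh, where 4.52% of all genes fell and 6.55% rose. Wnt4, Lef1 and Runx1 fell without the 1bp-ins-hom replicate 5. The genotypes were not alike here: the median difference of mean log2 CPM was -0.54 in the 1bp-ins-hom, -0.39 in the 3bp-12bp-del-hom and 0.11 in the 3bp-del-hom gonads.

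The receptor and intracellular arm of AMH signalling had a small median difference. AMH binds AMHR2 and signals through type I receptors and SMAD1, SMAD5 and SMAD9, with the Id genes as targets. Of 11 such genes 9 had a negative difference, with a median of -0.10 (log2) and a range of -0.54 to 0.16. In the fit on log2 Amh 2 of the 11 fell and 0 rose, where 4.52% of all genes fell and 6.55% rose. Without the 1bp-ins-hom replicate 5 Acvr1, a type I receptor gene, rose and Smad9 fell, where 4.63% of all genes did either. Amhr2 stood at 137 to 231 CPM (median 189) in the high libraries and at 139 to 220 CPM (median 214) in the low ones, and Smad5 differed by -0.13 ± 0.08. The Amhr2 difference of -0.08 ± 0.11 turned positive where the 1bp-ins-hom gonads were left out (0.0126) and at a threshold of 25 CPM (0.14).

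Germ cells were described by 3 lists. Genes of germ cells in both sexes had a median difference of 0.08 (log2), with 9 of 12 positive, which turned to -0.03 with 2 of 12 positive without the 1bp-ins-hom replicate 4 and to -0.02 with 5 of 12 positive without the 3bp-del-hom replicate 1. Within the 1bp-ins-hom, 3bp-12bp-del-hom and 3bp-del-hom gonads 12, 2 and 4 of the 12 were positive. The NODAL genes of male germ cells were all positive in the 3 of 6 that were tested. Lefty2, a NODAL inhibitor induced by NODAL itself, stood at 16.7 to 55.2 CPM (median 28.1) in the high libraries and at 9.61 to 21.2 CPM (median 18.9) in the low ones, a difference of 0.92 ± 0.26 (adjusted p = 0.14). Lefty1 differed by 0.95 ± 0.27 and Nodal by 0.53 ± 0.18. Lefty1 and Lefty2 rose with log2 Amh with and without the 1bp-ins-hom replicate 5. Of 11 female meiosis genes 8 were positive, with a median of 0.13, while Rec8, a meiotic cohesin, differed by -0.36 ± 0.19.

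Cell cycle genes had small positive differences. Of 15 tested, 14 had a positive difference, with a median of 0.15 (log2), and 12 reached an unadjusted p under 0.05, where 7.74% of all genes did so in this direction. Cdk1, the kinase that drives mitosis, stood at 111 to 149 CPM (median 132) against 95.7 to 127 CPM (median 117), a difference of 0.23 ± 0.04 (adjusted p = 0.098), and Top2a, the DNA topoisomerase of dividing cells, differed by 0.17 ± 0.06. Among basement membrane genes, Col18a1 differed by 0.62 ± 0.17 and Col4a1 by 0.49 ± 0.17. The list of 11 went both ways, with 7 positive and 4 negative, down to -0.30, and a median of 0.13.

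Markers of other cells also differed in value between the classes. All 11 macrophage genes tested were lower in the high libraries, with a median of -0.34 (log2). Within genotypes the median difference of mean log2 CPM was -0.54 in the 1bp-ins-hom and -0.61 in the 3bp-del-hom gonads, with 0 of 11 positive in each, but 0.13 in the 3bp-12bp-del-hom gonads, with 9 of 11 positive. Their summed level was 51.1 to 86.2 CPM in the high and 59.3 to 110 CPM in the low class. Mrc1, a receptor of tissue macrophages, differed by -0.34 ± 0.16 and Csf1r, the receptor for their growth factor, by -0.22 ± 0.17. Of the neighbouring tissues, 6 of 7 mesonephros genes and all 6 adrenal genes tested were lower, with medians of -0.77 and -0.97. The mesonephros median was -0.45 without the 3bp-del-hom replicate 4. The adrenal median was -1.81 without the 1bp-ins-hom replicate 3 and 0.14, with 4 of 6 positive, at a threshold of 100 CPM. Cdh16, a cadherin of the nephric duct, stood at 42.5 CPM in the 3bp-del-hom replicate 4, at 0.121 to 4.14 CPM in the other low libraries and at 0.0251 to 6.29 CPM in the high ones, and Gata3, a duct transcription factor, differed by -0.77 ± 0.27. Hbb-bh1, an embryonic globin, differed by -0.80 ± 0.23, the lowest of 9 erythroid genes tested, of which 3 were positive, up to 0.21. Endothelial, stromal, surface epithelial, erythroid, immediate early and sterol synthesis lists had medians of 0.08, -0.07, -0.09, -0.13, 0.03 and 0.03. The part of these cells in the differences above was not tested. With the 3bp-del-hom replicate 4 and the 1bp-ins-hom replicate 5 both left out, a choice made after seeing the data, 92 genes were called and the Sertoli median was 0.58, with 20 of 21 positive.

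**Figure D3:**
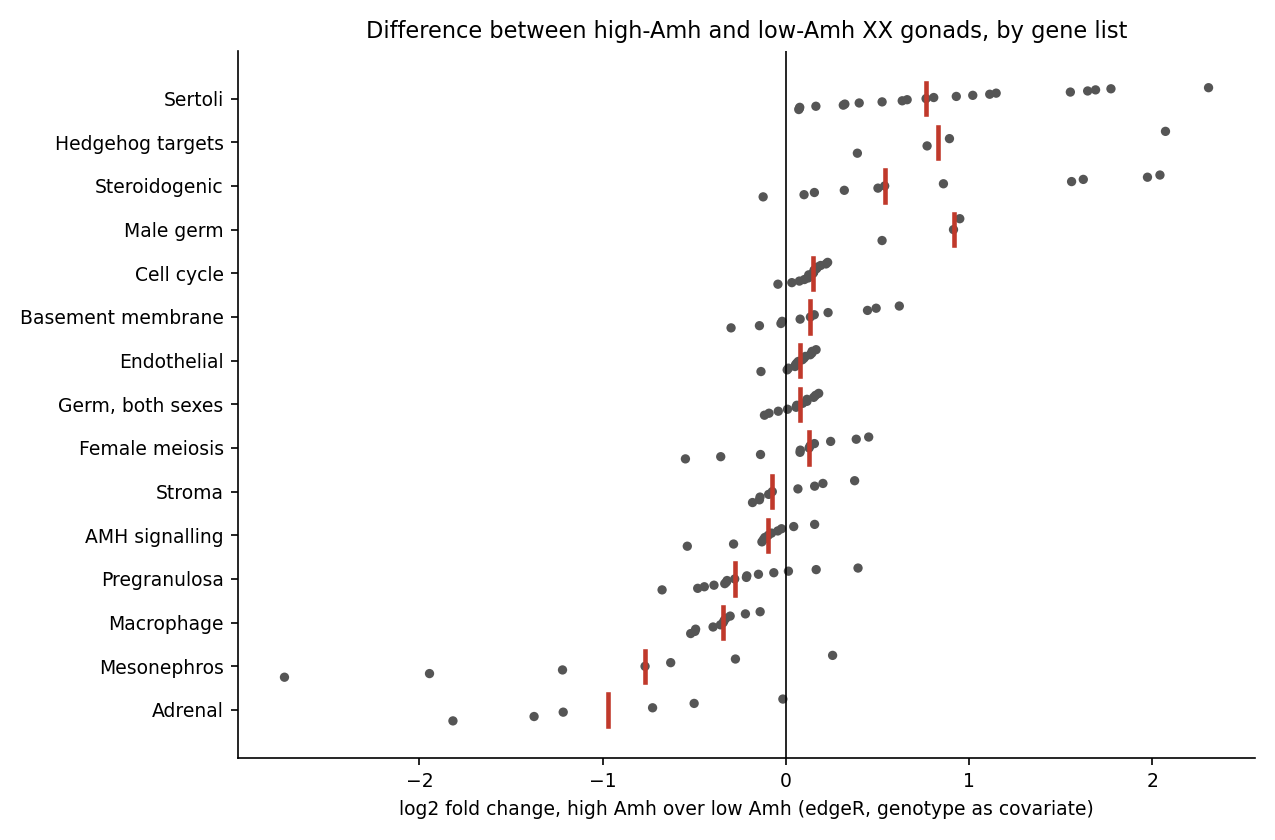
Log2 fold change of high over low Amh (edgeR, genotype as covariate) for each tested gene, 1 point per gene, by gene list, with the median of each list in red. The Sertoli list lies wholly to the right of 0 with a median of 0.77, and the macrophage list wholly to the left with a median of -0.34; Amh is not shown.

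Whether the same genes went with Amh elsewhere was asked in the 22 XY gonads, which the division of the XX libraries did not use. Their Amh ran from 211 to 1190 CPM. With genotype as covariate, edgeR called 210 genes that rose (1.26%) and 74 that fell (0.445%) per doubling of Amh, 1.71% of 16613. The count was 89 without the XY 3bp-12bp-del-hom replicate 3, 158 without the XY 3bp-del-het replicate 3 and 428 without the wild-type XY replicate 3. Of the 204 rising genes that were tested in XX, 198 had a positive difference between high and low XX libraries, with a median of 0.42 (log2), and of 73 falling genes 61 had a negative one, with a median of -0.18. In the 3bp-12bp-del-hom gonads alone 34 of the 73 falling genes were positive. Without the XX 1bp-ins-hom replicate 5 182 of 202 rising genes were positive, with a median of 0.19, and 17 of 73 falling genes were positive, with a median of -0.14. With the XY set rebuilt without its 3bp-12bp-del-hom replicate 3, 72 of 73 rising genes were positive, with a median of 0.45, and 11 of only 15 falling genes were negative, with a median of -0.19. Across the 15977 genes tested in both, Spearman's rho between the XX difference and the XY change was 0.45, a description over genes, which are not independent replicates.

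Of 21 Sertoli genes, 7 rose with Amh in XY, where 1.26% of all genes rose. Col9a3 rose by 0.84 ± 0.07 (log2 per doubling of Amh, edgeR adjusted p = 3.06e-06), Ptgds by 0.83 ± 0.06 (adjusted p = 5.41e-07) and Defb19 by 0.97 ± 0.12 (adjusted p = 0.000374), and these 3 stayed called whichever XY library was left out. Gdnf rose by 0.33 ± 0.08 (adjusted p = 0.049), which was called in only 4 of the 22 fits that left out a library. Dhh, which separated the XX classes in CPM, changed by 0.25 ± 0.09 in XY and was not called (adjusted p = 0.19). Of 11 steroidogenic genes 6 rose, where 1.26% of all genes did. Among them Cyp17a1 rose by 2.18 ± 0.27, Insl3 by 2.33 ± 0.30, Star, which carries cholesterol into mitochondria, by 0.62 ± 0.12 and Ren1 by 0.72 ± 0.12. Runx1, a pregranulosa transcription factor, fell by 0.49 ± 0.10 (adjusted p = 0.018). Clu, a secreted chaperone of Sertoli cells that was chosen after its values were seen, rose by 0.59 ± 0.07 in XY and stood at 59.4 to 181 CPM against 40.8 to 59.3 CPM in the XX classes. Sox9 was not among the genes called in XY either (adjusted p = 0.99).

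**Figure D4:**
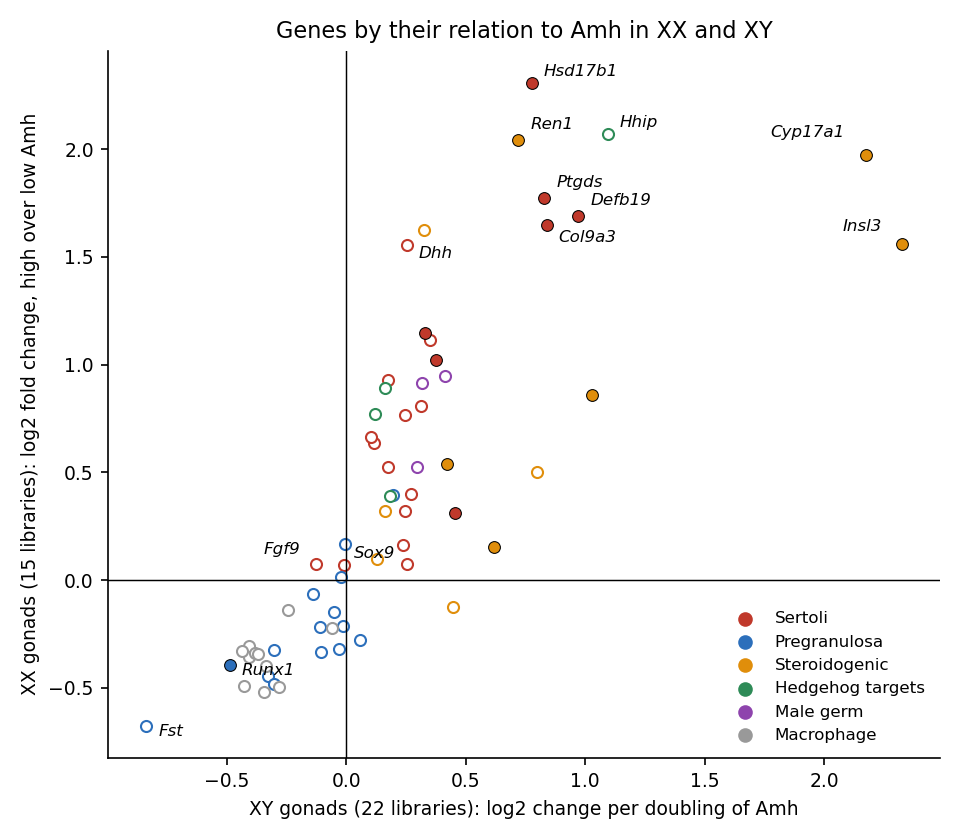
Log2 fold change of high over low Amh in the 15 XX libraries (vertical) against the log2 change per doubling of Amh in the 22 XY libraries (horizontal), 1 point per gene of 6 lists; filled points were called in XY at an adjusted p under 0.05. Ptgds, Col9a3, Defb19 and Ren1 are high on both axes, Dhh is an open point with a smaller value in XY, and Sox9 and Fgf9 lie near 0 on both.

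The wild-type gonads gave a scale of testis-side and ovary-side genes. Genes called between wild-type XY and XX gonads at 2-fold or more, on autosomes, numbered 419 higher in XY and 512 higher in XX, from 1737 calls among 15729 genes (11.0%; 5.10% higher and 5.94% lower in XY). Of 412 testis-side genes tested in the XX homozygotes, 401 had a positive difference between high and low libraries, with a median of 0.55 (log2), and of 500 ovary-side genes 441 had a negative one, with a median of -0.24. Within genotypes 396, 393 and 350 of the testis-side genes were positive in the 1bp-ins-hom, 3bp-12bp-del-hom and 3bp-del-hom gonads. Of the ovary-side genes 47 and 58 were positive in the 1bp-ins-hom and 3bp-12bp-del-hom gonads, but 268 of 500 in the 3bp-del-hom gonads, where the median was 0.01. The wild-type XY replicate 3 held 243 CPM of mesonephros markers and had the lowest Amh, Dhh and Sox9 of the 3, and the part of these in the choice of genes was not tested. Rebuilt without it, the sets gave 578 of 608 and 1029 of 1177. Over the testis-side genes the mean log2 CPM was 2.84 to 4.05 in the high and 2.42 to 2.82 in the low libraries, with no overlap. Over the ovary-side genes it was 1.72 to 2.56 and 2.34 to 2.90, with overlap. Testis-side minus ovary-side, the low libraries lay at -0.4292 to 0.2914 and the high ones at 0.2852 to 2.33, so that the classes overlapped slightly, with wild-type XX at -1.95 to -1.59 and wild-type XY at 1.96 to 2.85. Of the 15, only the 1bp-ins-hom replicate 5 reached the wild-type XY range. At 2.33 it lay above the wild-type XY replicate 3 (1.96) and below replicates 1 and 2 (2.85 and 2.65). The genes were chosen from these same wild-type libraries, so the wide gap between wild-type XX and XY follows in part from that choice.

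**Figure D5:**
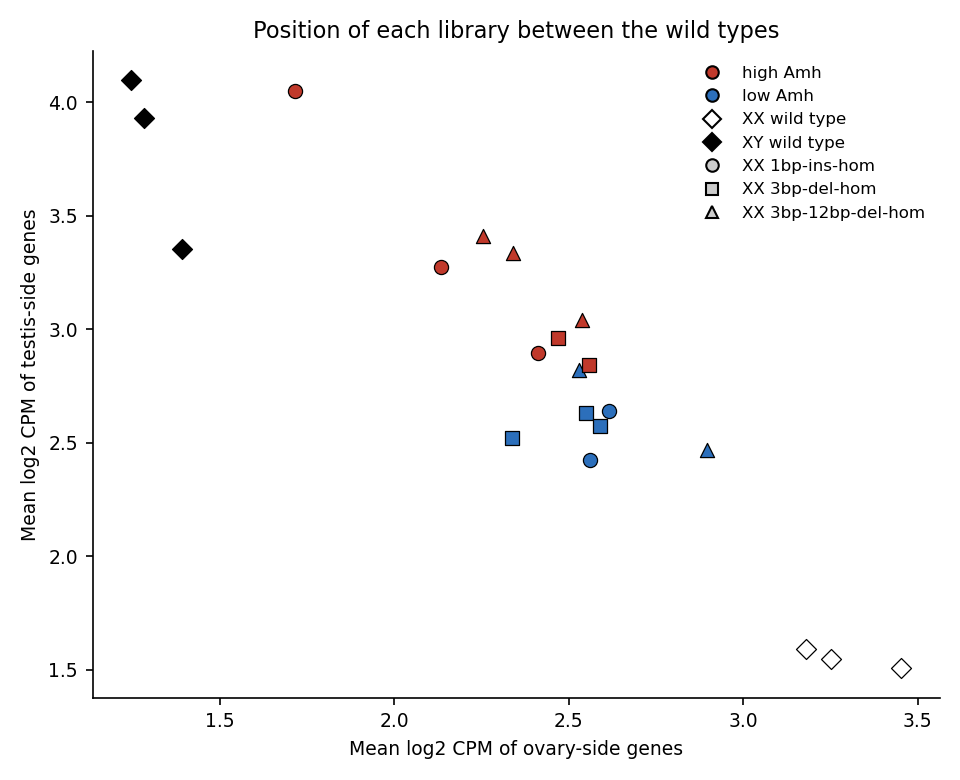
Mean log2 CPM of testis-side genes (vertical) against that of ovary-side genes (horizontal), 1 point per library, with the genes chosen from the wild types alone. All 7 low-Amh libraries (blue) lie between 2.42 and 2.82 on the vertical axis and all 8 high-Amh libraries (red) between 2.84 and 4.05. On the horizontal axis both lie between XX wild type (open diamonds) and XY wild type (filled diamonds), whose wide gap follows in part from the choice of genes.

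Against wild-type XX gonads the low class had 2227 genes higher (13.8%) and 2053 lower (12.7%) of 16141 (26.5%), and 2161 in all without the wild-type XX replicate 2 or 2217 without the wild-type XX replicate 3. The wild-type XX replicate 1 carried adrenal markers at a summed 215 CPM, whose part in these counts was not tested. Of 20 Sertoli genes tested 17 rose, with a median of 2.73 (log2). Sox9 was higher by 4.27 ± 0.22 (adjusted p = 4.93e-06), Dhh by 4.56 ± 0.43, Gdnf by 3.71, Fgf9 by 3.16, Col9a3 by 2.77 and Ptgds by 2.69. Of 15 pregranulosa genes 11 fell, Fst by 2.10, Foxl2 by 1.65 and Bmp2 by 0.86. Lefty2 was higher by 3.40 and Lefty1 by 2.29. Of the Hedgehog targets, Gli1 was 0.85 higher (adjusted p = 0.11), and Hhip fell by 1.60 (adjusted p = 0.0062).

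Against wild-type XY gonads, the high class had 268 genes higher (1.67%) and 160 lower (0.995%) of 16073 (2.66%), a count that moved from 81 without the wild-type XY replicate 2 to 1219 without the 1bp-ins-hom replicate 5. None of the 21 Sertoli genes was called, with a median difference of -0.32 (log2). Of 412 testis-side genes, chosen from the same wild-type XY libraries, 35 were called lower and 1 higher, with a median of -0.48. The wild-type XY replicate 3 held 243 CPM of mesonephros markers. Its Sertoli genes with Amh summed to 1085 CPM, against 2445 and 2145 CPM in replicates 1 and 2. The part of this replicate was not tested. Sox9 stood 0.51 higher (adjusted p = 0.22), or 0.26 to 0.66 with 1 library left out. Dhh differed by -0.60 and Gdnf by -0.83. Of 15 pregranulosa genes, 7 were called higher, Fst by 3.29 (adjusted p = 0.029), Foxl2 by 2.73 (adjusted p = 0.026) and Bmp2 by 1.41 (adjusted p = 0.039) among them. Fst kept the call in 5, Foxl2 in 7 and Bmp2 in 2 of the 11 fits that left out 1 library. Gli1 differed by -1.30 and Ptch1 by -1.26, with adjusted p-values of 0.055 and 0.087.

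The size of the high over low difference varied in value between genotypes but was not shown to differ. For the Sertoli list the median difference of mean log2 CPM was 1.01 in the 1bp-ins-hom, 0.74 in the 3bp-12bp-del-hom and 0.45 in the 3bp-del-hom gonads, with 20, 17 and 20 of 21 genes positive. The Amh differences were 3.32, 2.65 and 1.39 in the same order. For Dhh the differences were 1.91, 1.77 and 0.99, and for Gli1 1.36, 1.41 and 0.06. A test of the interaction between genotype and class called 0 of 16643 genes in edgeR, with 347 at an unadjusted p under 0.05 (2.08%), and 4 in DESeq2.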

How the data were processed

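RNA of mouse gonads (140 ng total RNA, poly(A) selection and a NEBNext UltraExpress kit, per the labels' protocols) was sequenced in 46 libraries. The authors deposited 1 table of estimated counts and 1 of TPM per gene, and the submitters' processing notes name mm10. Aligner, quantifier, annotation and strand setting: not given in the sources used here. One count column without a matching sample (1 in number) was not used. Deposited TPM, which summed to 923510 to 945851, served only for a check on gene length and for the overlap of the classes in a few genes. Across 13567 genes the high over low fold change and relative length had a Spearman rho of -0.194, whose part in the results was not tested. Estimated counts were rounded and tested with edgeR 4.0.16 (R 4.3.3, filterByExpr, TMM, quasi-likelihood fit, Benjamini-Hochberg adjustment, threshold 0.05), with Amh left out of counts. Genotype was a covariate between the classes and in the XY fit. The comparisons with the wild types and between them had no covariate, so each class pooled its genotypes there. CPM is the count over the column sum scaled to 1e+06. DESeq2 1.42.0 was an alternative. Only the edgeR fit of high over low was tried on simulated counts, which held no genotype effect. The other fits were not. The members, the 20 gene lists and the tests were chosen with earlier results of these data known. By the rule for named genes (from each list up to 4 called and up to 2 uncalled of highest level), the text names Amh, Sox9, Inhbb, Wnt4, Nkd1, Gata4, Wt1, Smad5, Amhr2, Ptch1, Scarb1, Fdxr, Csf1r, Mrc1, Rec8, Lefty1, Lefty2, Top2a, Col18a1 and Col4a1. All other genes were named after their values were seen.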

Additional observations from a re-analysis of the deposited data

Results flagged for a closer look

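In 88 groups of values checked (a gene or marker sum in the high or the low class), 29 had a highest or lowest library far from the rest by Dixon's test. The groups came from the same libraries and held Amh, which set the classes, and genes named after their values were seen. The count therefore describes these libraries and has no chance rate to be set against. Of the 29, 20 were the 1bp-ins-hom replicate 5 in the high class. It was the highest for Amh at 878 CPM (next 182.6), Dhh at 218.1 CPM (next 114.9), Gdnf at 36.22 CPM, Ptgds at 97.42 CPM, Col9a3 at 310.2 CPM (next 93.42), Hsd17b1 at 11.12 CPM, Defb19 at 34.29 CPM and Vnn1 at 38.02 CPM, all Sertoli genes. It was the highest for the Hedgehog targets Gli1 at 42.15 CPM, Ptch1 at 217.6 CPM and Hhip at 94.81 CPM (next 1.814). Among steroidogenic genes it was the highest for Hsd17b3 at 21.27 CPM, Ren1 at 118.1 CPM (next 17.78), Scarb1 at 146.3 CPM, Fdxr at 165.9 CPM, Cyp17a1 at 63.57 CPM (next 1.194) and Insl3 at 17.26 CPM, and among germ cell genes for Lefty1 at 19.5 CPM. It was the lowest for Wt1 at 294.3 CPM (next 453.3) and Runx1 at 10.26 CPM (next 31.28).

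The other 9 were spread over 5 libraries. In the high class the 1bp-ins-hom replicate 2 was highest for Cdh16 at 6.292 CPM, and replicate 3 for Gata3 at 4.089 CPM and for the adrenal marker sum at 46.205 CPM (next 15.41). In the low class the 3bp-12bp-del-hom replicate 2 was highest for Gdnf at 9.166 CPM and Ptch1 at 81.46 CPM, and replicate 3 for Runx1 at 57.54 CPM. The 3bp-del-hom replicate 4 was highest for Cdh16 at 42.47 CPM, Gata3 at 11.74 CPM and the mesonephros marker sum at 133.19 CPM (next 34).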

How the results depend on the processing

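The 0 calls between the classes became 476 with DESeq2, 109 at a threshold of 25 CPM, 347 at 100 CPM, 1842 with log2 Amh as covariate and 23 without the genotype covariate. Chosen after seeing the data, 752 came from log2 Amh and 502 from DESeq2 without the 1bp-ins-hom replicate 5, and 92 with that library and the 3bp-del-hom replicate 4 left out. Leaving out 1 library gave 0 to 105. The interaction gave 4 in DESeq2 and 0 to 2 with 1 library left out. Low against wild-type XX gave 1594 at 25 CPM and 2161 to 4710 with 1 library left out. High against wild-type XY gave 1194 with DESeq2, 11 at 100 CPM and 81 to 1219 with 1 library left out. The wild types gave 2817 with DESeq2 and 638 to 6936 with 1 library left out. The XY fit gave 616 with DESeq2, 92 in XY homozygotes only and 89 to 428 with 1 library left out. Deviations of same-numbered XX homozygotes correlated at -0.269 to 0.187, and those of other-numbered ones at -0.345 to 0.312. These overlapping ranges cannot decide whether the numbers pair the samples. With the replicate number as a block the counts were 0 between the classes, 144 for high against wild-type XY (428 without the block), 1027 for the wild types (1737) and 1415 in XY (284). Directions reversed for Amhr2 at 25 CPM (0.14) and, without the 1bp-ins-hom gonads, for Sox9 (-0.0082), Foxl2 (0.0398) and Amhr2 (0.0126). The cause of these changes was not tested. Over 28 settings the Sertoli median stayed between 0.58 and 0.97 and the pregranulosa median between -0.66 and -0.19. Medians that turned sign reached 0.14 for adrenal, 0.19 for erythroid, -0.06 for germ cells of both sexes, -0.03 for meiosis, -0.0082 for the factors acting on Amh, 0.04 for stroma, -0.04 for immediate early and -0.06 for sterol genes. Genes near 1 CPM, such as Insl3, rest on few counts.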
